A study of Mus musculus with 11 samples.

Results

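The 37 genes described here act in germ cells, in meiosis or in the piRNA pathway, which uses small RNAs to silence transposons in the germ line. They were chosen by name, with earlier results of these data known. The choice took genes whose promoters are silenced by DNA methylation in the epiblast, or that act in meiosis or the piRNA pathway. Comparisons of their promoters and starts with all genes therefore describe a chosen set. Each gene was measured over the 2 kb tiles that overlap its GRCm38 span with 2 kb added on either side. All 37 had at least 3 tested tiles, as did 20713 protein-coding genes in all. The windows of the 37 held 914 of the 1362779 tiles, and 889 of these were tested. All 37 genes lie on autosomes. The signal is 5-hydroxymethylcytosine (5hmC), captured chemically from sonicated mouse genomic DNA (HMCP) and sequenced, so it says nothing directly about transcription.

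A pair of wild-type lines of mouse embryonic stem cells were used. TET_WT is the parental line of a Tet1, Tet2 and Tet3 triple knock-out, and DNMT_WT is the parental line of a Dnmt1, Dnmt3a and Dnmt3b triple knock-out; the knock-outs themselves are not analysed here. TET_WT was sampled as stem cells in 2i/Lif medium (day 0, 3 libraries) and after 1 day (2 libraries, labelled replicates 2 and 3) and 2 days (3 libraries) of conversion to epiblast-like cells (EpiLC). DNMT_WT was sampled at day 2 (3 libraries). All groups are wild type, and no allele or agent beyond the culture conditions was given in the labels. The labels do not say whether replicates were separate cultures, so each p-value measures only the spread between these libraries. The values are log2 RPKM (reads scaled to tile length and library depth), so they show where the mark sits within a library and not how much of it there is in all. Because each library is a mixture of cells, a mark on fewer cells and a weaker mark per cell cannot be told apart.

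The libraries held 7342015 to 51604034 recovered reads, and a tile held 2 to 13 reads in the median. TET_WT day 0 replicate 2 stood apart from its group: it correlated with the other day 0 libraries at r = 0.935 across genes, against 0.957 between those, and 30.22% of its tiles had no reads against 15.64% and 13.12%. At TET_WT day 2 the same correlations were 0.981. Results that rest on this library are given with and without it.

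Cytosines at CpG sites are methylated by DNMT enzymes, and TET enzymes oxidise the methyl group to 5hmC. Many germline genes have CpG-rich promoters that gain DNA methylation when the epiblast forms and stay silent in the body's other cells. In stem cells they are also held silent by a Polycomb complex that contains E2F6, MGA and MAX, whose E2F-type and E-box motifs occur in these promoters.

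RefSeq (GRCm38.p6) promoter entries, 250 bases before to 50 after the start, were matched for 32 of the 37 genes. Spo11, Meiob, Tdrd6, Piwil2 and Rnf17 were not matched. At least 10 CpG sites stood in 31 of the 32 entries (96.9%), against 57.2% of the 17491 protein-coding promoters of the same length. The median was 19 CpG against 13, from 8 in Mei1 to 48 in Tdrd5. The Mei1 and Stag3 entries start 12402 and 7995 bases inside the annotated spans of these genes, so their start values and CpG counts describe an internal start. The letters TCCCGC (on either strand, so also read as GCGGGA) were found in 13 entries (40.6%, against 25.8% of all promoters). The E-box letters CACGTG, which read the same on both strands, were found in 14 (43.8%, against 7.91%). Both motifs were found in 7 (21.9%, against 2.74%): Ddx4, Stag3, Hormad1, Mael, Slc25a31, Sycp1 and Sycp3. A match is a description of the letters and not evidence of binding.

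The 250 bases before the start are printed for 7 genes. In Dazl and Slc25a31 a very strong tile that holds the start fell between day 0 and day 2. Both start tiles of Hormad1 rose. Sycp1 and Meioc had the smallest limma adjusted p between the lines by start value, and Mael and Sycp3 carry both motifs. Each sequence reads 5′ to 3′ on the strand of its gene, with any match to either motif in capitals. Dazl lies at chr17:50293621-50293870 and Sycp1 at chr3:102936101-102936350, both on the minus strand, as does Mael at chr1:166238745-166238994. On the plus strand lie Slc25a31 at chr3:40708621-40708870, Sycp3 at chr10:88459337-88459586, Hormad1 at chr3:95559427-95559676 and Meioc at chr11:102665335-102665584.
Dazl: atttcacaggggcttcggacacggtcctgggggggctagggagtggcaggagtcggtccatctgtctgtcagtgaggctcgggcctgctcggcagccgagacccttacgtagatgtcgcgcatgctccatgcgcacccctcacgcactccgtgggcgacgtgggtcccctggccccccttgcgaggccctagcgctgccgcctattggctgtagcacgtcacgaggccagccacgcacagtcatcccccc
Slc25a31: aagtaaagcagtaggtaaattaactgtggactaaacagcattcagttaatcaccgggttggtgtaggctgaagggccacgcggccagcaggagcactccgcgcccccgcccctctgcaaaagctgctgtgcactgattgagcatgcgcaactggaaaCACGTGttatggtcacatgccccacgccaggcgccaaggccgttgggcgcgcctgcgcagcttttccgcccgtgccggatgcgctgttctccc
Sycp1: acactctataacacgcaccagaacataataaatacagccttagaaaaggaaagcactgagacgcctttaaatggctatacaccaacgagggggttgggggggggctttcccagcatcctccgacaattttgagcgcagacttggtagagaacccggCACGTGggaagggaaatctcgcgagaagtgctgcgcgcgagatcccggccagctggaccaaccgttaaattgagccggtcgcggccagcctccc
Mael: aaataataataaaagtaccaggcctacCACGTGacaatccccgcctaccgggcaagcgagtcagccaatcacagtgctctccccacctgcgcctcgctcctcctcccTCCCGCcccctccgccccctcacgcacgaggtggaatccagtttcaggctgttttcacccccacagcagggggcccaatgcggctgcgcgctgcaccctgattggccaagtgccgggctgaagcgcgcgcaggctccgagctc
Sycp3: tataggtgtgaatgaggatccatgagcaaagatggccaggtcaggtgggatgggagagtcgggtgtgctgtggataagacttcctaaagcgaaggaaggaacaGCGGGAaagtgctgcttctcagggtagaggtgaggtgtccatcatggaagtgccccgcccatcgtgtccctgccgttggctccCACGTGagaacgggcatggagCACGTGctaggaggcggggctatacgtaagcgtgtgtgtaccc
Hormad1: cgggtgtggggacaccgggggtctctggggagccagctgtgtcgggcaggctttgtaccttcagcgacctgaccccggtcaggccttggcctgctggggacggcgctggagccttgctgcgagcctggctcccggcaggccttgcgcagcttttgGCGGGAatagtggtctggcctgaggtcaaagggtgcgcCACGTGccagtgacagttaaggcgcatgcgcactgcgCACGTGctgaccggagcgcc
Meioc: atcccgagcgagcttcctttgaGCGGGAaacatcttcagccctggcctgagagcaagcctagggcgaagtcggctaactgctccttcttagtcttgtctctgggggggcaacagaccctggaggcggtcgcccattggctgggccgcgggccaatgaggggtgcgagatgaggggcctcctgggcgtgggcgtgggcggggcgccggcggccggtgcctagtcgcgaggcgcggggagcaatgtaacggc
The Meioc entry lies almost wholly within the gene's annotated span, which begins upstream of the start that RefSeq uses in this table. The Dazl stretch has no match to either motif and is still dense in CpG, with 28 sites in its 300-base entry. Sycp3 and Hormad1 each show 2 E-boxes. The TCCCGC matches of Slc25a31 and Sycp1 lie in the 50 bases after the start, which are not printed.

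The main feature of these genes was a narrow peak of 5hmC at the start. For each gene the start value is the mean log2 RPKM of the tested tiles within 1 kb of the start, available for 32 of the 37 genes and for 16793 genes in all. Its median over the 32 genes lay between 1.42 and 2.03 in the 11 libraries, while the median over all genes lay between -1.33 and -0.47. By the mean over the 11 libraries, all 32 were above the median of all genes. By the same mean 24 (75%) were above the 90th percentile, 17 above the 95th and 7 above the 99th. The lowest was Slc25a31, at the 52nd percentile, whose start value rests on the tile beside its start. In DNMT_WT alone, Asz1 and Slc25a31 lay below the median of all genes, at the 45.6th and 49.5th percentile.

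**Figure D1:**
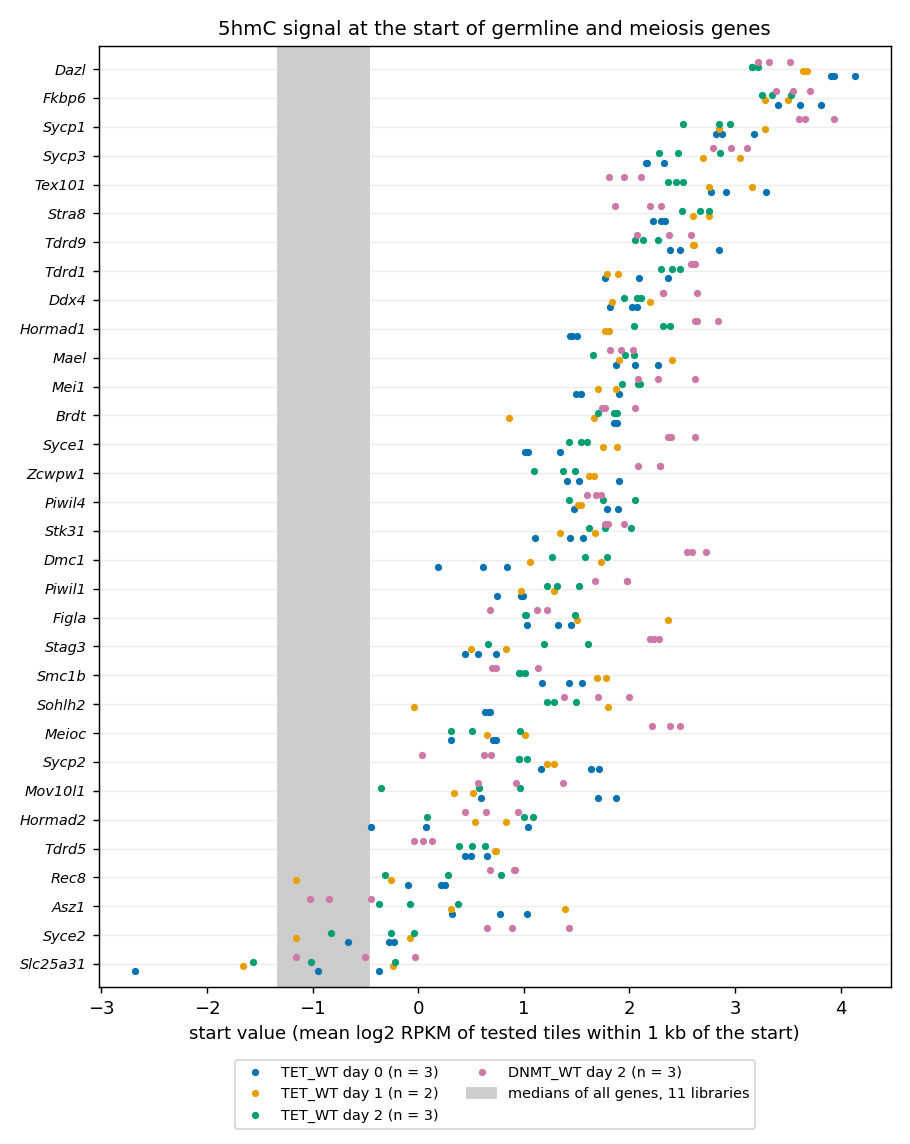
Start value (mean log2 RPKM of the tested tiles within 1 kb of the start, horizontal axis) of 32 germline and meiosis genes, 1 point per library, coloured by group. The grey band spans the medians of all genes in the 11 libraries (-1.33 to -0.47), and nearly all points lie to its right.

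The peak was narrow. The tile of the window with the highest mean signal was a start tile in 26 of 32 genes (81.2%), against 18.9% of the 17273 protein-coding genes with a start. Start tiles exceeded the rest of the window in 29 to 30 of the 32 genes in every library, against 28.6% to 41.0% of all genes. The median of that difference was 2.08 to 3.14 on the log2 scale, against -0.95 to -0.36 over all genes, where the start was usually a dip. Averaged over the group, the tile at 0 kb stood at 2.06, 2.14 and 2.02 log2 RPKM in the TET_WT day 0 libraries, and the tile at +4 kb at -1.14, -1.88 and -1.12. Only tested tiles were averaged, so the 0 kb mean covers 28 genes and the +4 kb mean 32. Over all genes the same positions stood at -1.57, -1.5 and -1.5, and at -0.61, -0.86 and -0.56.

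**Figure D2:**
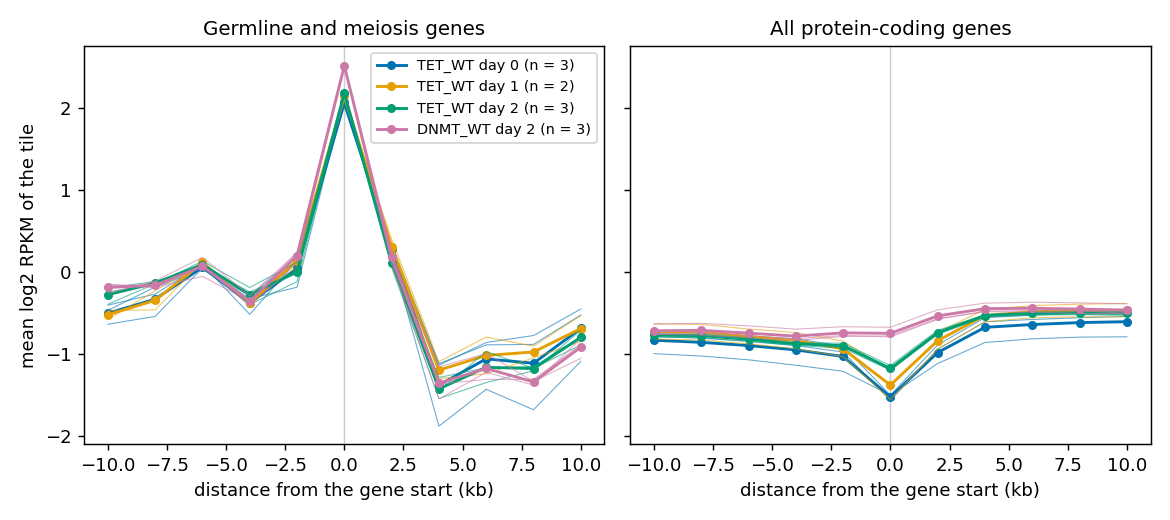
Mean log2 RPKM of the tile (vertical axis) against its distance from the gene start in kb, for the germline and meiosis genes (left) and all protein-coding genes (right). Thin lines are libraries and thick lines are group means. The germline genes peak at the start in every group (about 2.06 in the first day 0 library), where all genes dip. At 0 kb the germline mean covers 28 genes, without Dazl, Sohlh2, Mov10l1 and Slc25a31, whose tiles there were not tested.

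Averaged over the whole window the peak was diluted. The window value (mean over the tested tiles of the span with 2 kb on either side) had a mean over libraries that ranged from the 6.4th percentile of all genes, in Sycp2, to the 98.3rd, in Stra8, and only 5 of 37 genes were above the 90th. The number of CpG sites in the promoter entry did not order the start values: r = -0.09 and rho = -0.04 over the 32 genes, which share their libraries. The start values and the window values both leave out the tiles that hold the starts of Dazl, Sohlh2, Mov10l1 and Slc25a31. For Slc25a31 the start value used was -0.94, against a mean of 3.87 in the tile left out. The relation of CpG count and start value with those tiles kept was not tested.

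The 4 strongest peaks were Dazl, Sohlh2, Mov10l1 and Slc25a31. Their start tiles ranked 240th, 412th, 514th and 565th of the 1316897 tiles on chromosomes 1 to 19 and X by mean signal, so all 4 fell in the top 0.1% of tiles that the tests leave out. Their start values therefore rest on the 1 flanking tile that remained, and the tiles themselves were tested in a further fit that kept the highest tiles (1185205 tiles, chosen after the data were seen).

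Across the conversion, TET_WT day 2 was compared with day 0. The start value rose in 2 of 32 genes and fell in 4, by an adjusted p under 0.05. Of all genes tested, 15.3% rose and 1.5% fell. The median difference of the 32 genes was 0.02, against 0.26 for all genes. The direction split depended on the scaling: it was 2 higher and 1 lower after median centring, and 2 higher and 8 lower after quantile normalization, which also took the median of all genes to -0.03. Without the variance trend (a spread estimated as 1 value for genes of any level) only Dazl passed. The shares of all genes called under these settings are not given here, so these counts have no background beside them.

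**Figure D3:**
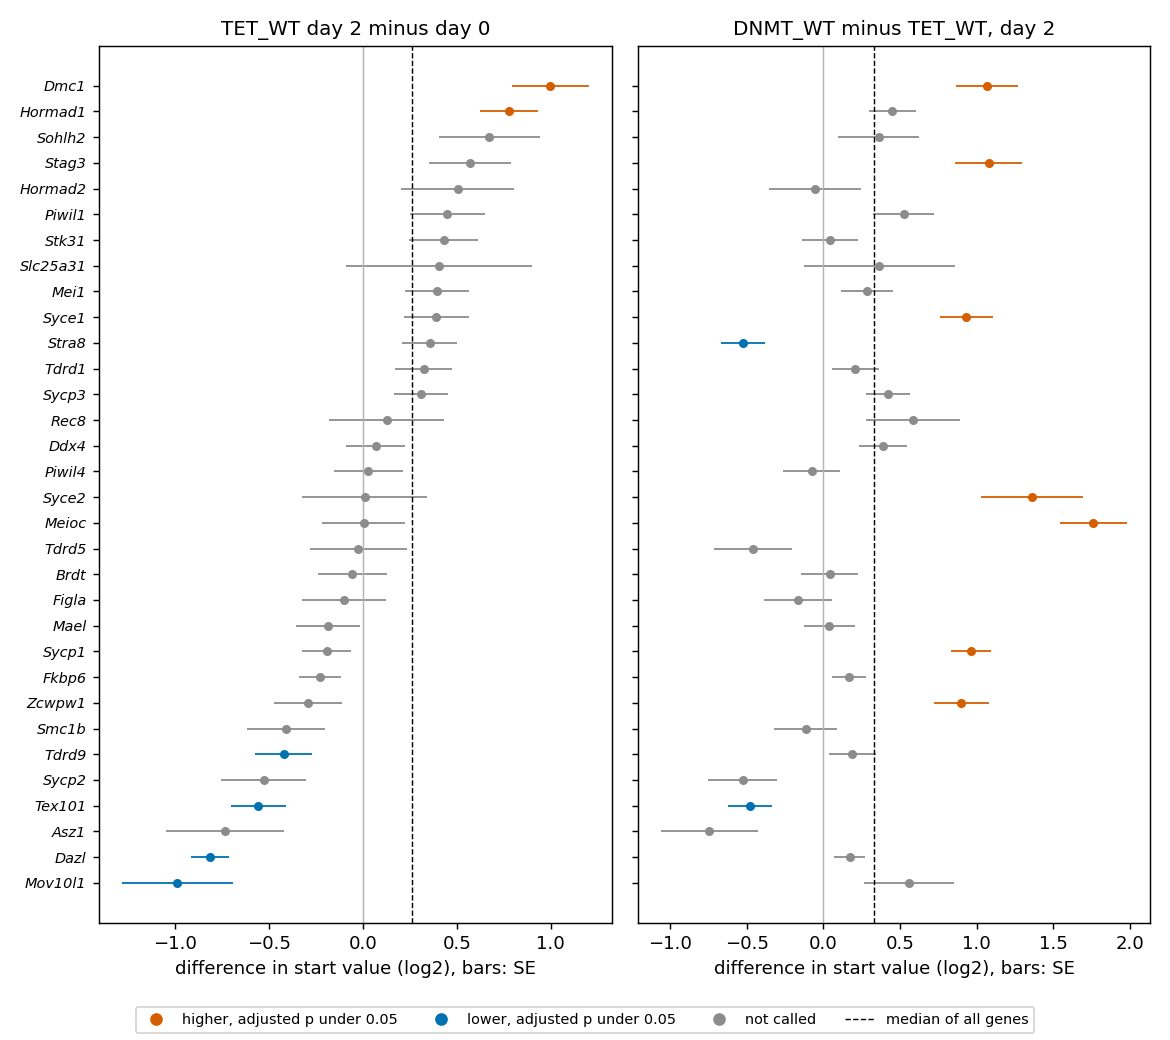
Difference in start value (log2, horizontal axis; bars are the standard error from limma) for TET_WT day 2 minus day 0 (left) and DNMT_WT minus TET_WT at day 2 (right), with called genes coloured. The dashed line is the median of all genes (0.26 and 0.33); Dazl and Mov10l1 lie lowest on the left, and Meioc highest on the right.

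Among the genes of meiotic entry and RNA binding, Dazl fell most firmly. Dazl (chr17:50279393-50293620, minus strand) encodes an RNA-binding protein that licenses germ cells for gametogenesis. Its start tile, chr17:50292001-50294000, which holds the promoter printed above, read 4.59, 4.83 and 4.54 log2 RPKM at day 0, 4.38 and 4.36 at day 1, 3.73, 3.71 and 3.72 at day 2 and 4.0, 3.7 and 4.07 in DNMT_WT. Every day 2 library was below every day 0 and day 1 library. The fall from day 0 to day 2 was -0.93 (SE 0.12, limma adjusted p = 2.17e-11), and that from day 1 to day 2 was -0.65 (adjusted p = 0.00015). Without the variance trend neither fall passed (adjusted p = 0.138 and 0.425). They rested on 1069, 729 and 990 reads at day 0 and 320, 228 and 311 at day 2. The flanking tile, which gives the start value, also fell: 3.91, 4.13 and 3.94 at day 0, 3.68 and 3.64 at day 1 and 3.22, 3.16 and 3.16 at day 2, a difference of -0.81 (SE 0.10, adjusted p = 1.11e-07). With tiles within 2 kb of the start the difference was -0.22 (adjusted p = 0.746). Even at day 2 the tile remained among the highest of the group. The Dazl window value leaves this tile out and averages the 9 tested tiles of its 10. On those tiles the window was the second lowest. It read -2.59, -3.15 and -2.53 at TET_WT day 0, -1.37 and -3.43 at day 1, -3.7, -3.25 and -3.56 at day 2 and -3.66, -2.63 and -3.3 in DNMT_WT. Its place with the start tile kept was not tested.

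Stra8 (chr6:34920163-34939344), the retinoic acid-induced gene that triggers meiotic entry, had the highest window value of the 37. It was 1.82, 2.09 and 1.81 at TET_WT day 0, 1.76 and 1.91 at day 1, 1.78, 1.87 and 1.77 at day 2 and 1.61, 1.69 and 1.62 in DNMT_WT, and no comparison of the window passed. Its start value was 2.34, 2.3 and 2.22 at TET_WT day 0, 2.75 and 2.6 at day 1, 2.75, 2.67 and 2.5 at day 2 and 2.19, 2.3 and 1.86 in DNMT_WT. Day 2 was above day 0 in all libraries, but the difference of 0.36 did not pass (SE 0.14, adjusted p = 0.0875). Meioc, a partner of meiotic RNA regulation that keeps germ cells in prophase, had start values of 0.71, 0.31 and 0.74 at day 0, 1.01 and 0.65 at day 1 and 0.31, 0.96 and 0.51 at day 2, which overlapped. Its tile that holds the start fell nonetheless, by 0.84 (SE 0.24, adjusted p = 0.00984), from 1.47, 1.4 and 1.54 to 0.26, 0.88 and 0.76, and was not called without day 2 replicate 1 (-0.65, adjusted p = 0.154).

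The synaptonemal complex zips paired chromosomes together in meiotic prophase, and none of its 5 genes passed between day 0 and day 2 by start value. Sycp1 encodes its transverse filament. Its start value was 2.82, 3.18 and 2.88 at TET_WT day 0, 3.28 and 2.85 at day 1, 2.51, 2.95 and 2.85 at day 2 and 3.94, 3.66 and 3.6 in DNMT_WT, and the groups at day 0 and day 2 overlapped. Sycp3, of the lateral element, read 2.33, 2.16 and 2.17 at day 0, 2.7 and 3.05 at day 1, 2.46, 2.28 and 2.86 at day 2 and 2.96, 3.11 and 2.79 in DNMT_WT. The difference of 0.31 did not pass (adjusted p = 0.15), although the tile that holds the Sycp3 start rose by 0.51 on its own (SE 0.14, adjusted p = 0.00732; 0.41 and adjusted p = 0.134 without day 2 replicate 3). Sycp2, its partner in the lateral element, had the lowest window of all, at -3.09, -4.19 and -3.07 at TET_WT day 0, -2.39 and -3.38 at day 1, -3.64, -3.41 and -3.82 at day 2 and -3.91, -3.43 and -3.32 in DNMT_WT. The central element genes Syce1 and Syce2 had day 2 minus day 0 differences of 0.39 and 0.01, neither called.

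In the cohesin and chromosome axis group, Hormad1 rose. Hormad1 (chr3:95559677-95587863) encodes a HORMA-domain protein of the unpaired axis. Start values were 1.44, 1.46 and 1.5 at day 0, 1.81 and 1.77 at day 1, 2.04, 2.32 and 2.38 at day 2 and 2.84, 2.64 and 2.62 in DNMT_WT. No day 2 library overlapped day 0, and the difference was 0.78 (SE 0.16, adjusted p = 0.000267). Both of its start tiles rose, by 0.60 and 0.96 (adjusted p = 0.00332 and 0.00585), the larger not without day 2 replicate 3 (0.86, adjusted p = 0.0718). Hormad2, its paralogue, and the cohesin subunit Stag3 had differences of 0.50 and 0.57, neither called. Rec8 and Smc1b, both subunits of meiotic cohesin, had differences of 0.13 and -0.41, neither called.

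Of the recombination genes, Dmc1 rose. Dmc1 (chr15:79561497-79605159, minus strand) encodes the meiotic strand-exchange recombinase. By library its start read 0.61, 0.19 and 0.84 at day 0, 1.73 and 1.06 at day 1, 1.27, 1.79 and 1.58 at day 2 and 2.72, 2.59 and 2.54 in DNMT_WT. All later libraries were above all day 0 libraries, and day 2 minus day 0 was 1.0 (SE 0.20, adjusted p = 0.000366). The tile that holds the start rose by 1.4 (SE 0.23, adjusted p = 5.41e-07), from 42, 24 and 60 reads at day 0 to 63, 51 and 70 at day 2 in shallower libraries. With tiles within 2 kb of the start, the Dmc1 difference was 0.45 and did not pass (adjusted p = 0.245). Mei1, needed for meiotic double-strand breaks, and Zcwpw1, a reader of the histone marks at recombination sites, had differences of 0.40 and -0.29, neither called.

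The 14 piRNA and germ granule genes made up the largest role. Of the 11 with a start value, none rose and 2 fell between day 0 and day 2. Tdrd9, an RNA helicase with a Tudor domain, read 2.38, 2.85 and 2.48 at day 0, 2.6 and 2.61 at day 1, 2.05, 2.27 and 2.13 at day 2 and 2.37, 2.07 and 2.58 in DNMT_WT. Day 0 and day 2 did not overlap, but the difference of -0.42 (SE 0.15) was close to the threshold (adjusted p = 0.0484). It was lost under 16 of the 22 alternatives, among them leaving out day 0 replicate 2 (-0.28, adjusted p = 0.205). Mov10l1, a helicase that loads piRNA precursors, was called from its flanking tile, at 1.7, 1.87 and 0.59 at day 0, 0.34 and 0.52 at day 1, -0.35, 0.58 and 0.96 at day 2 and 0.93, 0.57 and 1.37 in DNMT_WT, and day 0 overlapped day 2. That difference of -0.99 (SE 0.29, adjusted p = 0.0146) was lost without day 0 replicate 1 (-0.83, adjusted p = 0.0935), day 0 replicate 2 (-0.74, adjusted p = 0.101) or day 2 replicate 1 (-0.61, adjusted p = 0.209). The Mov10l1 tile that holds the start read 3.72, 4.31 and 3.85 at day 0 and 3.88, 3.72 and 3.79 at day 2, a difference of -0.16 (adjusted p = 0.573).

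No other piRNA gene was called. Fkbp6, a co-chaperone of piRNA loading, had the second highest start value, 3.41, 3.81 and 3.61 at TET_WT day 0, 3.5 and 3.28 at day 1, 3.53, 3.25 and 3.35 at day 2 and 3.71, 3.55 and 3.39 in DNMT_WT. Ddx4, the germ granule helicase also called Vasa, read 2.07, 2.02 and 1.82 at TET_WT day 0, 1.83 and 2.19 at day 1, 2.07, 2.11 and 1.95 at day 2 and 2.32, 2.32 and 2.64 in DNMT_WT. Mael, a germ granule protein, read 1.87, 2.27 and 2.05 at TET_WT day 0, 1.9 and 2.4 at day 1, 1.96, 1.65 and 2.04 at day 2 and 1.82, 1.92 and 2.03 in DNMT_WT. The groups of each of these 3 overlapped between day 0 and day 2. Tdrd1, a Tudor scaffold of the granule, read 2.09, 2.36 and 1.77 at TET_WT day 0, 1.79 and 1.89 at day 1, 2.48, 2.3 and 2.4 at day 2 and 2.61, 2.62 and 2.58 in DNMT_WT. Its day 2 minus day 0 difference was 0.32 (adjusted p = 0.152). Stk31, a Tudor-domain kinase, read 1.56, 1.11 and 1.44 at day 0, 1.67 and 1.34 at day 1, 1.62, 2.01 and 1.77 at day 2 and 1.95, 1.8 and 1.77 in DNMT_WT. Day 2 was above day 0 in all libraries without passing (0.43, adjusted p = 0.108). The other start differences of this role ran from -0.73 in Asz1, a germ granule scaffold, to 0.45 in Piwil1, an Argonaute protein of late spermatogenesis, and those of Tdrd5 and Piwil4 were -0.02 and 0.03.

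Of the remaining genes, Tex101 fell at its start. Tex101 (chr7:24668012-24672050, minus strand) encodes a germ cell surface protein. The start read 2.77, 3.29 and 2.91 at TET_WT day 0, 3.16 and 2.75 at day 1, 2.44, 2.51 and 2.36 at day 2 and 2.11, 1.81 and 1.95 in DNMT_WT. Day 2 lay below all earlier libraries, and the difference from day 0 was -0.56 (SE 0.15, adjusted p = 0.00524). It did not pass after median centring (-0.47, adjusted p = 0.284). Its window was the second highest of the 37, at 1.77, 2.13 and 1.72 at TET_WT day 0, 1.95 and 1.86 at day 1, 1.42, 1.7 and 1.63 at day 2 and 1.51, 1.22 and 1.39 in DNMT_WT, with a day 2 minus day 0 difference of -0.29 (adjusted p = 0.129).

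Slc25a31, the testis ADP/ATP carrier, held one of the strongest peaks. Its start tile, chr3:40708001-40710000, read 4.2, 4.4 and 4.14 at day 0, 4.44 and 4.15 at day 1, 3.63, 3.76 and 3.76 at day 2 and 3.41, 3.14 and 3.51 in DNMT_WT. Day 2 lay below every earlier library: the fall was -0.53 from day 0 (SE 0.12, limma adjusted p = 0.000883) and -0.58 from day 1 (adjusted p = 0.00368; -0.43 and adjusted p = 0.347 without day 1 replicate 2). Without the variance trend neither passed (adjusted p = 0.415 and 0.493). The tile beside it, which gives the start value, was low and scattered, from -2.68 to -0.03 over the 11 libraries. Brdt, the testis bromodomain protein, had start values of 1.87, 1.88 and 1.85 at TET_WT day 0, 0.86 and 1.66 at day 1, 1.85, 1.88 and 1.7 at day 2 and 1.77, 2.05 and 1.74 in DNMT_WT, with 1 day 1 library below the rest. The oocyte factor Figla had a difference of -0.10, not called.

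**Figure D4:**
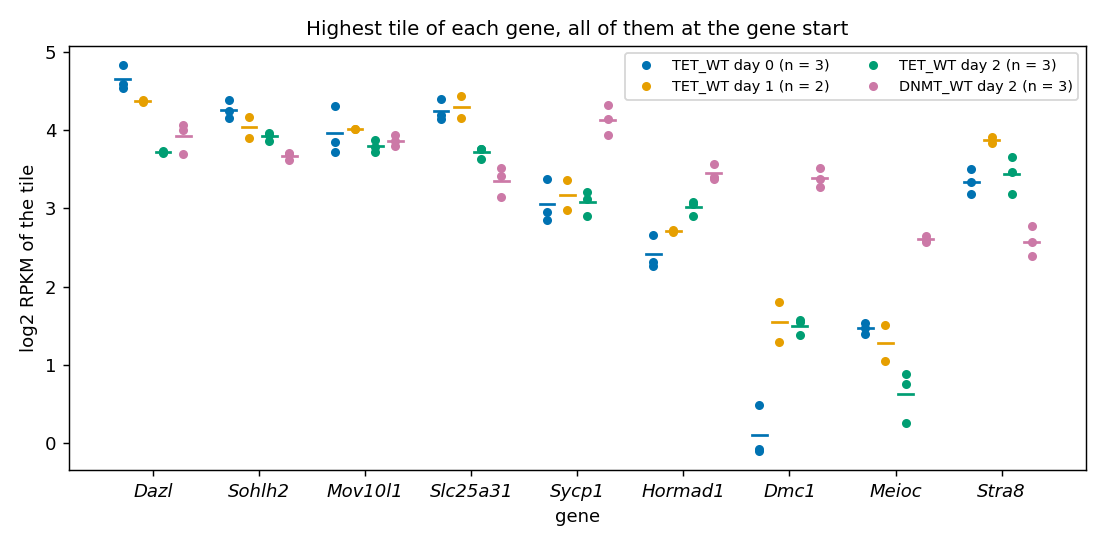
Log2 RPKM (vertical axis) of the highest tile of 9 genes, each a tile at the gene start; points are libraries, coloured by group, and bars are group means. Dazl, Sohlh2, Slc25a31 and Meioc are lower at TET_WT day 2 than at day 0, and Hormad1 and Dmc1 are higher. Sycp1, Hormad1, Dmc1 and Meioc are highest in DNMT_WT, and Sohlh2, Slc25a31 and Stra8 are lowest there.

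Over whole windows the change was small. From day 0 to day 2 no window rose and 1 of 37 fell, against 15.3% and 2.51% of all genes, and the median difference was -0.08 against 0.09. The gene that fell was Sohlh2 (chr3:55182044-55209957), a helix-loop-helix factor of early germ cells. Its window value was -0.02, -0.21 and -0.03 at TET_WT day 0, -0.41 and -0.69 at day 1, -0.71, -0.59 and -0.66 at day 2 and -0.77, -0.71 and -0.88 in DNMT_WT. Day 2 was below day 0 in all libraries, with a difference of -0.57 (SE 0.14, adjusted p = 0.0138). The call was lost without day 0 replicate 1 (-0.53, adjusted p = 0.054), day 2 replicate 1 (-0.54, adjusted p = 0.0573) or day 2 replicate 3 (-0.56, adjusted p = 0.0522). Sohlh2's own start tile went from 4.16, 4.38 and 4.24 to 3.97, 3.94 and 3.86 (-0.33, adjusted p = 0.0678). The flanking tile, which gives its start value, read 0.63, 0.67 and 0.68 at day 0 and 1.29, 1.49 and 1.22 at day 2. That was higher in all day 2 libraries without passing (0.67, limma adjusted p = 0.0793). Leaving out day 0 replicate 2, which stands apart, gave 4 windows lower and none higher: Sohlh2 (-0.63), Stk31 (-0.71), Rnf17 (-0.41) and Brdt (-0.41). On recovered reads with voom, 3 windows rose and 7 fell. The shares of all genes called under these settings are not given here, so neither count has a background beside it.

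Over the first day few values moved. Between day 0 and day 1, 0 of 37 windows passed in limma, as did 0 of all genes (0% in either direction). At an unadjusted p under 0.05 there was 1 window of the 37 and 2551 of all genes, and voom on recovered reads also called 0 of the 37. By start value 0 of 32 passed, against 0.208% higher and 0.0834% lower of all genes. An unadjusted p under 0.05 was found for 9 of the 32 and for 2026 of all 16793 genes, and voom called 1. Of the 889 tiles 5 rose and 2 fell, against 0.601% and 0.409% of all tiles, and 4 of the 7 were start tiles. The tile that holds the Dmc1 start rose by 1.44 (SE 0.26, adjusted p = 0.000145), from 42, 24 and 60 reads at day 0 to 22 and 58 in the shallower day 1 libraries, and that of Sycp3 by 0.76 (adjusted p = 0.0016). A start tile of Syce1 rose by 1.33 (adjusted p = 0.0196), and one of Piwil4 fell by 0.97 (adjusted p = 0.0232). Without day 1 replicate 2, the shallowest library, 1 of the 889 tiles was called, and Dmc1 (adjusted p = 0.0529), Syce1 (0.293) and Piwil4 (0.186) were not. The count was 21 without day 1 replicate 3 and 11 without day 0 replicate 3, and without day 1 replicate 3 also 4 starts passed. No share of all tiles or genes is given beside these counts. The Piwil4 tile was also lost without day 0 replicate 1 or 2 (adjusted p = 0.0923 and 0.0654). With only the groups compared in the fit 1 tile was called, and without the variance trend none.

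From day 1 to day 2, 0 of 37 windows passed, against 8.99% higher and 0.599% lower of all genes. An unadjusted p under 0.05 was found for 5 of the 37 and for 4880 of all 20713 genes, and voom called 0. By start value 1 of 32 rose and 4 fell, against 9.44% and 0.542% of all genes. Tdrd1 rose by 0.56 (adjusted p = 0.0278). Dazl fell by 0.48 (adjusted p = 0.00365), Tex101 by 0.52 (adjusted p = 0.0311), Smc1b by 0.76 (adjusted p = 0.0276) and Figla by 0.76 (adjusted p = 0.0429). Smc1b, whose start is shared with Ribc2, read 1.43, 1.55 and 1.17 at TET_WT day 0, 1.69 and 1.78 at day 1, 1.01, 0.96 and 0.95 at day 2 and 0.74, 1.13 and 0.7 in DNMT_WT. Figla, the oocyte transcription factor, read 1.03, 1.32 and 1.45, then 2.36 and 1.5, then 1.01, 1.48 and 1.02, and 1.22, 0.68 and 1.12 in DNMT_WT. In all 5 genes the day 1 and day 2 libraries did not overlap. That was common: it held, higher and lower, for 4 and 9 of the 32 starts and for 4517 and 1974 of all 16793 genes. In Figla the day 1 libraries lay far apart. These calls held poorly: none passed after median centring, without the variance trend, at equal depth or within 2 kb of the start, and voom called Smc1b alone of the 32. Without day 1 replicate 2 none of the 5 genes passed (adjusted p = 0.0505 in Dazl to 0.604 in Figla), and without day 2 replicate 1 or 3 Dazl alone did. Smc1b and Tdrd1 also did not pass without day 1 replicate 3 (adjusted p = 0.111 and 0.0625) or day 2 replicate 2 (0.0799 and 0.0527), nor did Tex101 without the latter (0.0634). Leaving out day 0 replicate 2, which stands apart, gave 8 starts, with no share of all genes beside that count.

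Of the 889 tiles 16 rose and 4 fell from day 1 to day 2, against 2.41% and 0.551% of all tiles. A start tile rose in Brdt (0.61, adjusted p = 0.00871) and Rec8 (1.02, adjusted p = 0.0293) and fell in Dazl (its flanking tile, -0.48, adjusted p = 0.0382) and Tex101 (-0.64, adjusted p = 0.0355). Leaving out day 1 replicate 2 ended all 4 of these calls (adjusted p = 0.143 to 0.683) and left 8 tiles. Rec8 and Dazl were also lost without day 1 replicate 3 or any 1 day 2 library of TET_WT (adjusted p = 0.0515 to 0.159), Tex101 without any 1 of the latter (0.0679 to 0.182) and Brdt without day 2 replicate 1 (0.115). Dazl was lost without DNMT_WT replicate 1 as well (0.0518). The count was 11, 10 and 10 without day 2 replicate 1, 2 and 3. Both comparisons with day 1 rest on 2 libraries and share libraries with the comparison of day 2 and day 0.

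Single tiles within the windows moved about as often as tiles elsewhere. Between day 0 and day 2, 54 of 889 tiles rose (6.07%) and 27 fell (3.04%), against 5.33% and 2.68% of the 1183888 tiles tested. Of the 60 start tiles 8 rose (13.3%) and 4 fell (6.67%), and of the other 829 tiles 5.55% rose and 2.77% fell. The share for the start tiles of all genes is not given. By start value 15.3% of all genes rose and 1.5% fell. Besides those of Dmc1, Hormad1 and Sycp3, a start tile rose in Hormad2 (0.70), Mei1 (0.76), Stag3 (0.80) and Piwil1 (0.85), and besides Dazl, Meioc and Mov10l1 one fell in Tex101 (-0.64). Hormad2 and Tex101 were not called without day 0 replicate 2 (adjusted p = 0.0549 and 0.106), nor Mei1, Stag3 and Piwil1 without day 0 replicate 1 (0.0688, 0.0796 and 0.0817). Piwil1 and Stag3 were also lost without day 2 replicate 2 (0.082 and 0.211), and Stag3 without day 2 replicate 3 (0.0519). The largest gains lay in gene bodies far from the start, in tiles nearly empty in day 0 replicate 2. In Tdrd5 a tile at chr1:156266001-156268000 rose by 3.23 (SE 0.56, adjusted p = 2.47e-06), from 13, 0 and 11 reads to 28, 19 and 41. In Hormad2 a tile at chr11:4422001-4424000 rose by 3.2, from 26, 1 and 36 reads to 71, 40 and 52. Without day 0 replicate 2 these gains were 2.24 and 1.81, both still called. In Mael a tile at chr1:166204001-166206000 rose by 2.26 (1.19 without that library, still called). The gains in Rnf17 (2.49) and Asz1 (2.38) were lost without it, at 1.36 (adjusted p = 0.112) and 2.13 (adjusted p = 0.0563). Asz1 was also lost without day 2 replicate 1 (2.11, adjusted p = 0.181) or replicate 3 (2.29, adjusted p = 0.118). Without the variance trend no tile of the windows was called (0 of 889, against 81).

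In the largest losses few reads were left at day 2. A tile just past the end of Meioc, chr11:102684001-102686000, fell by 3.25 (SE 0.85, adjusted p = 0.00419), from 19, 21 and 21 reads at day 0 to 1, 1 and 2 at day 2, and DNMT_WT held 17, 3 and 8. In Brdt a tile at chr5:107374001-107376000 fell by 2.29 (SE 0.63, adjusted p = 0.00783), from 38, 37 and 36 reads to 11, 1 and 8. The Brdt call was lost without day 0 replicate 2 (-2.04, adjusted p = 0.0653) or day 2 replicate 2 (-1.37, adjusted p = 0.272). The tile of Stag3 (-2.62) was not called without day 0 replicate 1 or 3 or day 2 replicate 1 or 2 (adjusted p = 0.0883, 0.208, 0.236 and 0.0634). That of Zcwpw1 (-1.79) was not called without day 0 replicate 2 or 3 or day 2 replicate 3 (adjusted p = 0.131, 0.0892 and 0.168). In Sycp1 (-1.61) leaving out any 1 of the day 0 or day 2 libraries of TET_WT ended the call, with an adjusted p of 0.0511 to 0.191.

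At day 2 the lines differed at the start of 9 of the 32 genes. The labels give DNMT_WT and TET_WT as separate parental lines, so line and any difference in culture cannot be told apart. By start value, 7 of 32 genes were higher in DNMT_WT and 2 lower, against 8.75% and 1.72% of all genes, and the medians were 0.25 and 0.33. Of the 7, 3 were among the 5 synaptonemal complex genes and 2 among the 3 recombination genes with a start value. A further 1 was among the 5 cohesin and axis genes, and 1 among the 3 genes of meiotic entry and RNA binding. By start value none of the 11 piRNA genes was called, although single start tiles of Ddx4 and Tdrd1 were. The roles are small, and differences between them were not tested. After quantile normalization Tdrd5 and Asz1 were called lower (-0.85 and -1.13, adjusted p = 0.0297 and 0.0239). The split was 7 higher and 0 lower after median centring, which took the median of all genes to 0.54, and 6 higher and 5 lower after quantile normalization, which took it to 0.00. Without the variance trend Meioc and Syce1 passed. These counts too stand without the share of all genes called under the same setting.

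Meioc (chr11:102665351-102682240) differed most. Its start value was 2.21, 2.38 and 2.48 in DNMT_WT against 0.31, 0.96 and 0.51 in TET_WT, 1.76 higher (SE 0.22, adjusted p = 3.56e-07). Both of its start tiles were called, and the tile that holds the start had 214, 84 and 160 reads in DNMT_WT and 29, 32 and 40 in TET_WT. Dmc1 was 1.07 higher (SE 0.20, adjusted p = 0.000379), and its tile that holds the start 1.89 higher, with 372, 161 and 246 reads against 63, 51 and 70. The DNMT_WT level of Dmc1 was above that of any TET_WT library on any day.

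Sycp1 was 0.97 higher in DNMT_WT (SE 0.13, adjusted p = 1.44e-06), with no overlap, and both start tiles were called. Its direction turned when tiles within 2 kb of the start were used (-0.29, adjusted p = 0.251). Syce1 read 2.36, 2.39 and 2.62 in DNMT_WT and 1.6, 1.54 and 1.43 in TET_WT, 0.93 higher (adjusted p = 0.000282). Its earlier TET_WT libraries read 1.34, 1.01 and 1.04 at day 0 and 1.88 and 1.75 at day 1. Syce2 read 0.65, 1.43 and 0.89 and -0.26, -0.83 and -0.04, 1.36 higher (adjusted p = 0.00507), after -0.28, -0.23 and -0.66 at TET_WT day 0 and -1.16 and -0.08 at day 1. The call of Syce2 was lost without replicate 2 of either line (1.14 each, adjusted p = 0.051 without that of TET_WT and 0.0649 without that of DNMT_WT). Zcwpw1 read 2.29, 2.29 and 2.08 and 1.48, 1.1 and 1.37, 0.90 higher (adjusted p = 0.000711), after 1.52, 1.9 and 1.41 at TET_WT day 0 and 1.66 and 1.62 at day 1.

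Stag3, a meiotic cohesin subunit, read 2.23, 2.19 and 2.28 and 0.66, 1.61 and 1.19, 1.08 higher (adjusted p = 0.00087), after 0.44, 0.57 and 0.74 at TET_WT day 0 and 0.5 and 0.83 at day 1. Its start lies within 1 kb of that of Gpc2, so the signal cannot be assigned to 1 of these genes; the start of Smc1b is likewise shared with Ribc2. Within 2 kb of the start the Stag3 difference was 0.29 (adjusted p = 0.631), and that of Dmc1 0.48 (adjusted p = 0.206). Sycp3 and Hormad1 were 0.42 and 0.45 higher in start value without passing (adjusted p = 0.0524 and 0.0535).

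Stra8 and Tex101 were lower in DNMT_WT. Stra8 differed by -0.52 (SE 0.14, adjusted p = 0.0145), and its tile that holds the start by -0.86 (adjusted p = 2.51e-06), with 2.77, 2.57 and 2.39 against 3.66, 3.46 and 3.18 log2 RPKM. Its start value was lost without TET_WT replicate 1 (-0.47, adjusted p = 0.0941), TET_WT replicate 2 (-0.51, adjusted p = 0.0599) or DNMT_WT replicate 3 (-0.39, adjusted p = 0.128). Tex101 differed by -0.48 (SE 0.15, adjusted p = 0.0268), and leaving out any 1 day 2 library but DNMT_WT replicate 1 ended the call, with differences of -0.52 to -0.41. Dazl differed by 0.17 in start value (adjusted p = 0.287) and by 0.20 in the start tile (adjusted p = 0.461). For Slc25a31 the start tile was 0.36 lower without passing (difference -0.36, adjusted p = 0.0835).

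By window, 2 of 37 genes were higher in DNMT_WT and 1 lower, against 14.9% and 4.07% of all genes, with medians of 0.07 and 0.10. Quantile normalization gave 0 higher and 4 lower, and voom on recovered reads gave 14 higher and 2 lower. For these settings too the shares of all genes called are not given. Fkbp6 (chr5:135291704-135351809) read -0.47, -0.38 and -0.3 at TET_WT day 0, -0.57 and -0.36 at day 1, -0.51, -0.48 and -0.46 at day 2 and 0.11, 0.11 and -0.09 in DNMT_WT, 0.53 higher (SE 0.13, adjusted p = 0.0133), in a window that also holds Trim50. Spo11 (chr2:172977379-172993576), which makes the double-strand breaks of meiosis, read 0.94, 1.2 and 0.97 at TET_WT day 0, 0.75 and 1.18 at day 1, 1.24, 1.4 and 1.21 at day 2 and 1.76, 1.69 and 1.66 in DNMT_WT. It was 0.42 higher in DNMT_WT (SE 0.12, adjusted p = 0.0237). Piwil2 (chr14:70372477-70436898), an Argonaute protein that binds piRNAs, read 0.24, 0.22 and 0.28 at TET_WT day 0, 0.26 and 0.54 at day 1, 0.50, 0.59 and 0.36 at day 2 and 0.00, 0.02 and -0.09 in DNMT_WT. It was 0.51 lower (difference -0.51, SE 0.11, adjusted p = 0.00777), in a window that also holds part of Polr3d.

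Those calls differed in how they held. Without TET_WT day 2 replicate 1, Spo11 and Fkbp6 did not pass (0.40 and 0.51, adjusted p = 0.0875 and 0.0565), nor without DNMT_WT replicate 1 (0.39 and 0.49, adjusted p = 0.0852 and 0.0615) or DNMT_WT replicate 2 (0.43 and 0.50, adjusted p = 0.0638 and 0.0554). Spo11 was also lost without TET_WT replicate 3 (0.39, adjusted p = 0.0893) or DNMT_WT replicate 3 (0.45, adjusted p = 0.0545). Piwil2 passed with each library left out, but not after median centring (-0.30, adjusted p = 0.312), and its difference was -0.29 with voom (adjusted p = 0.00742). Without day 0 replicate 2, 5 windows were called, again without a share of all genes to set beside them.

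Among single tiles, 30 of 889 were higher in DNMT_WT (3.37%) and 12 lower (1.35%), against 1% and 2.24% of all tiles. Of the 60 start tiles 15 were higher (25%) and 2 lower (3.33%). The share for the start tiles of all genes is not given, so the share of all tiles is not a like background. By start value 8.75% of all genes were higher and 1.72% lower. The count of 42 tiles fell to 24 without TET_WT day 2 replicate 1, and to 27 without its replicate 2 or without DNMT_WT replicate 3. Besides the tiles above, a start tile was higher in Brdt (0.60) and Sycp3 (0.65) and lower in Hormad2 (-0.84), and these 3 were called with each library left out. The tile that holds the Ddx4 start was 0.59 higher (adjusted p = 0.0347) and that of Tdrd1 0.55 higher (adjusted p = 0.027). Ddx4 was lost without any 1 of the day 2 libraries but DNMT_WT replicate 2 (adjusted p = 0.057 to 0.253), and Tdrd1 without any but TET_WT replicate 1 (adjusted p = 0.0731 to 0.173). Without the variance trend 4 tiles of the windows were called, among them those that hold the starts of Dmc1 and Meioc (adjusted p = 0.0425 and 0.0319).

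Related genes outside the 37 were counted by window between day 0 and day 2, where 15.3% of all genes rose and 2.51% fell. Of 13 other piRNA pathway genes 1 rose and none fell: Exd1, by 0.43 (adjusted p = 0.0429). Of 26 other meiosis genes none passed; Majin and Mlh3 had the smallest p, with differences of 0.37 and 0.27 (adjusted p = 0.0621 and 0.0721). Of 20 other germ cell regulators 4 rose and none fell, led by Prdm14 (1.34, adjusted p = 1.57e-05) and Zfp42 (1.56, adjusted p = 3.7e-05). Of 20 genes that silence or demethylate germline promoters 6 rose and none fell, led by Uhrf1 (1.1, adjusted p = 0.000488) and Tet1 (0.68, adjusted p = 0.00107). Their medians were 0.09, 0.07, 0.12 and 0.19, against -0.08 for the 37 genes and 0.09 for all. Windows of 5 of 5 naive pluripotency genes rose, led by Tbx3 (3.36) and Klf2 (3.02), as did 4 of 5 formative genes, led by Sall2 (1.28) and Etv5 (1.11). Zfp42 is counted both among the germ cell regulators and among the naive genes. Of 6 fibroblast and feeder genes 1 rose, Thy1 (0.54). These markers were read in 5hmC and not in RNA, so they do not check the cells' identity.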

How the data were processed

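The deposited values are log2 RPKM of 5hmC capture reads in 2 kb tiles of GRCm38 for 11 libraries, made by the authors. Reads were trimmed with Trim Galore 0.6.5 and cutadapt 2.3 and aligned with Bowtie2 2.4.1, per the submitters' processing notes; how tiles were counted is not given in the sources used here. In every library all values of 1 to 100 reads lay within 0.1% of a whole read, so reads were recovered; tiles without reads hold the value of 0.9 reads. Tiles on chromosomes 1 to 19 and X were tested after the lowest 10% and the highest 0.1% by mean were removed. Genes were the mean of at least 3 tested tiles in the span with 2 kb on either side, and starts the mean of at least 1 tile within 1 kb of the RefSeq start. Comparisons used limma 3.58.1 (R 4.3.3) with a variance trend, all 4 groups in 1 fit, Benjamini-Hochberg adjustment over all features and a threshold of 0.05. Depth (7342015 to 51604034 reads) sets the precision of single tiles; p-values cover the spread between libraries. Alternatives were the tile filter, a pseudocount of 0.1, centring, quantile normalization, voom on reads, no variance trend, only the groups compared, a replicate block, equal depth, other windows and leaving out each library; tests of single tiles, with the highest tiles kept, and of start values against day 1 were added after the data were seen. The genes, lists and roles were chosen with earlier results of these data known. All 37 genes are accounted for; values in every library are given for genes called by window or start, for the 2 highest and 2 lowest windows and for a set chosen by name (Dazl, Ddx4, Mael, Sycp3, Sycp1, Stk31, Tex101, Brdt, Slc25a31, Tdrd1, Piwil2), and single tiles are their start tiles and the 5 largest gains and 5 largest losses among called tiles.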

Additional observations from a re-analysis of the deposited data

How the results depend on the processing

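For windows from day 0 to day 2 the count of 1 became 0 after median centring, 7 after quantile normalization, 10 with voom on recovered reads, 0 at equal depth and 2 without the added 2 kb, and it ranged from 0 to 4 when single libraries were left out. From day 1 to day 2 the count of 0 became 2 after quantile normalization and ranged from 0 to 2 with libraries left out. Between the lines the 3 windows became 1 after median centring, 16 with voom and 6 with only the groups compared, and ranged from 1 to 5. For starts from day 0 to day 2 the count of 6 became 3 after median centring, 10 after quantile normalization, 11 with voom, 1 without the variance trend, 3 at equal depth and 3 within 2 kb of the start, and ranged from 5 to 7. Between the lines the 9 starts became 15 with voom, 2 without the variance trend and 4 at equal depth, and ranged from 6 to 11. From day 0 to day 1 the count of 0 starts became 1 with voom and 2 with the tile that holds the start, and ranged from 0 to 4. From day 1 to day 2 the 5 starts became 0 after median centring, without the variance trend, at equal depth and within 2 kb, 8 after quantile normalization and 1 with voom, and ranged from 1 to 8. For tiles the 81 calls from day 0 to day 2 became 0 without the variance trend and ranged from 54 to 89; the 42 between the lines became 4 without it and 65 with only the groups compared, and ranged from 24 to 55. The 7 tiles from day 0 to day 1 became 0 without the trend and 1 with only the groups compared, and ranged from 1 to 21; the 20 from day 1 to day 2 became 0 and 31, and ranged from 8 to 29. The only sign that turned was that of the Sycp1 start between the lines, -0.29 within 2 kb of the start. The counts under these alternatives stand without the share of all genes or tiles called under the same setting. The causes were not tested. Equal depth also lowers the reads behind each value, and depth limits all calls from single tiles of few reads. The block on the replicate number gave 1, 0, 0 and 3 windows, 5 and 9 starts (0 and 4 against day 1), 8 and 17 tiles against day 1, and a Tdrd9 difference of -0.42 that no longer passed (adjusted p = 0.0521). Same-numbered libraries correlated at -0.288 to 0.299 in their deviations, so the numbers are not taken to pair the samples.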
